A study of Homo sapiens with 12 samples.

Results

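The genes described here are 51 genes of the mitotic spindle and of chromosome segregation, taken from the deposited count table by symbol, 1 row each, of 58051 genes listed. They were grouped by role into the spindle checkpoint and anaphase control (8 genes), the kinetochore and centromere (7), mitotic kinases and cyclins (6), the chromosomal passenger complex (4), kinesins (10), spindle assembly (5), cytokinesis (5), condensin and topoisomerase (5) and the transcription factor FOXM1. All 51 passed the filter on low counts in every comparison, and their lowest count in any library was 50.

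In mitosis, microtubules of the spindle attach to kinetochores, which assemble on centromeric chromatin, and kinesin motors push, pull or shorten those microtubules. The spindle checkpoint holds back the anaphase-promoting complex until every kinetochore is attached, after which separase cuts cohesin, the chromosomes part and the cytokinesis machinery divides the cell. Most of these genes are transcribed in G2 and mitosis, so their summed RNA in a culture follows how many cells are at that stage. In bulk RNA, fewer dividing cells and less RNA per dividing cell cannot be told apart.

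The cells were MDA-MB-231, a human triple-negative breast cancer line of mesenchymal type. All groups were transfected with siRNA pools at 50 to 100 nM (ON-TARGETplus SMARTpool for NELFA and for YAP1). The 4 groups of 3 libraries each were siControl, siNELFA, siYAP and siNELFA+siYAP. The siControl cells received a non-targeting pool, called scrambled siRNA in the sample titles. The siNELFA pool was against NELFA, a subunit of the negative elongation factor that holds RNA polymerase II near promoters. The siYAP pool was against YAP1, the coactivator that the Hippo pathway restrains, and siNELFA+siYAP had both of these pools. The labels give 48 h and 72 h of knockdown, and the study's methods give 72 h. The design asks how NELFA and YAP loss, alone and together, change transcription in a single cell line, and each knockdown rests on 1 pool. The library names give all 3 siNELFA+siYAP libraries the sample number 1 with a further index of 1 to 3, where the other groups are numbered 1 to 3, and the study lists fewer biosample records than libraries. The 3 siNELFA+siYAP libraries may therefore be repeats of 1 sample, in which case p-values against them measure technical spread, so each comparison with them is also given with their counts summed as 1 sample. They differed by more than sampling noise (chi-square per degree of freedom of 2.86 for replicates 1 and 3, 14.0 for 1 and 2, and 18.4 for 2 and 3), and pairs in the other groups by 14.0 to 150.1.

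The targeted genes followed the labels. NELFA was at 25.3, 27.7 and 28.1 CPM (counts scaled to library size after TMM normalisation) in siControl replicates 1 to 3, 9.88, 9.12 and 7.13 with siNELFA, 33.2, 25.0 and 22.3 with siYAP and 8.13, 6.72 and 6.33 with siNELFA+siYAP. YAP1 was at 302, 270.4 and 248 CPM in siControl, 289.7, 249 and 254 with siNELFA, 45.4, 45.0 and 37.8 with siYAP and 43.8, 40.7 and 40.0 with siNELFA+siYAP. Library totals were 9608145 to 18803104 counts. All 10 markers of the line were detected in every library, while 5 or 6 of 10 markers of blood, vessel, erythroid and liver cells had no count. The summed CPM of those 10, most of it CD68, was 107 to 111 in siControl, 139 to 153 in siYAP, 157 to 185 in siNELFA and 191 to 202 in siNELFA+siYAP, and its part in the results was not tested.

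The replicate 1 libraries of siControl, siNELFA and siYAP stood apart from the other 9. MALAT1, a nuclear non-coding RNA, took 3.14% to 4.41% of their counts and 0.706% to 1.02% elsewhere. CDH1, the epithelial cadherin that this line is known to lack, was at 24.9, 46.6 and 16.0 CPM in these 3 libraries and at or below 0.942 CPM in the others. The summed CPM of the 12 luminal and epithelial markers, most of it keratins, was 576 to 662 in siControl, 684 to 814 in siNELFA, 625 to 719 in siYAP and 630 to 639 in siNELFA+siYAP, with 0 to 4 of the 12 at no count. Replicate 1 had the lowest of these sums in siControl (576) and the highest in siNELFA (814) and siYAP (719). The list as a whole therefore did not go one way in the 3 libraries, unlike CDH1. The part of these libraries in the results was not tested beyond leaving them out, and each result below is given with and without replicate 1 where that matters.

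Genes of this class are known to be controlled from promoters that hold CCAAT boxes, bound by NF-Y, and the cell cycle homology element TTTGAA, bound by the MuvB complexes to which FOXM1 is recruited. RefSeq promoter windows (GRCh38.p14) matched 44 of the 51 symbols, with AURKA, BIRC5, BUB3, FOXM1, RACGAP1, TPX2 and TTK unmatched. In the 250 bases before the start, on either strand, TTTGAA was in 25 of 44 genes (56.8%) against 16.1% of the 27305 genes with a window, and its variant TTCGAA in 0 against 1.5%. CCAAT was in 34 (77.3%) against 37.0%, and at least 2 copies were in 21 (47.7%) against 11.5%. The sequence GGGCGG, searched for in the same way, was in 33 (75.0%) against 46.2%, so a higher share was not particular to TTTGAA and CCAAT. A match is a description of letters and not a site.

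The promoters of 4 genes, each the most abundant in CPM of its subgroup, are shown as examples of CCAAT alone and, in TOP2A, of both elements. Of the 44 genes, 20 held both, 14 CCAAT alone, 5 TTTGAA alone and 5 neither, and the last arrangements are not shown. Each is 200 bases, 5′ to 3′, ends before the first base of any annotated transcript of the gene, and has either element or its reverse complement in capitals.
BUB1, chr2:110678064-110678263, minus strand: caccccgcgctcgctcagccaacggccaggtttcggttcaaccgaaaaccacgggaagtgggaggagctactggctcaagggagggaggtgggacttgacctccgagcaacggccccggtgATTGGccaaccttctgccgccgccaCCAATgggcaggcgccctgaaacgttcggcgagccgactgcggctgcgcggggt
CENPF, chr1:214602985-214603184, plus strand: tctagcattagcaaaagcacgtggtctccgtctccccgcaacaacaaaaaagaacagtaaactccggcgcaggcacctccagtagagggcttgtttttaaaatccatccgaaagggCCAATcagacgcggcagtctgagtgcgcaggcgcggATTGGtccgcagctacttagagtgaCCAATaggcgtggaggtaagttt
KIF20B, chr10:89701390-89701589, plus strand: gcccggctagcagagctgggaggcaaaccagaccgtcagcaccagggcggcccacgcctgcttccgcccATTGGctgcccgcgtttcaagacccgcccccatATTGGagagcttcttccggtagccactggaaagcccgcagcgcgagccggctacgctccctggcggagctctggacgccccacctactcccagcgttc
TOP2A, chr17:40417897-40418096, minus strand: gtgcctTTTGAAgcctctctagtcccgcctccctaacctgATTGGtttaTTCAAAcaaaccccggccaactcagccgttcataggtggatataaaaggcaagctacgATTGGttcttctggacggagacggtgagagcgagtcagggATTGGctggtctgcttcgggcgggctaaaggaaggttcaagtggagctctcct
In TOP2A the TTTGAA matches began 194 and 151 bases before the RefSeq start and CCAAT 160, 93 and 53 before it. CENPF held CCAAT 94, 58 and 33 bases before the start, BUB1 79 and 54, and KIF20B 131 and 98, and none of these 3 held TTTGAA in the stretch shown. The median log2 fold change in siNELFA against siControl was -0.37 over the 25 genes with TTTGAA and -0.40 over the 19 without it.

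Levels in siControl, in the TPM of the authors, which account for gene length, had a median of 44.5 over the 51 genes and exceeded 100 for 9. ANLN was highest, at 182 ± 23.8 TPM (SD, n = 3), followed by PTTG1 at 161 ± 23.0, and HMMR was lowest at 8.89 ± 3.71. ANLN and PTTG1 did not differ beyond their spread. The 51 genes took 0.585%, 0.777% and 0.677% of the counts with siControl (replicates 1 to 3), 0.370%, 0.621% and 0.512% with siNELFA, 0.393%, 0.749% and 0.615% with siYAP, and 0.450%, 0.428% and 0.459% in siNELFA+siYAP. Within each of the first 3 groups replicate 1 was lowest and replicate 2 highest, while the siNELFA+siYAP libraries lay close together.

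**Figure D1:**
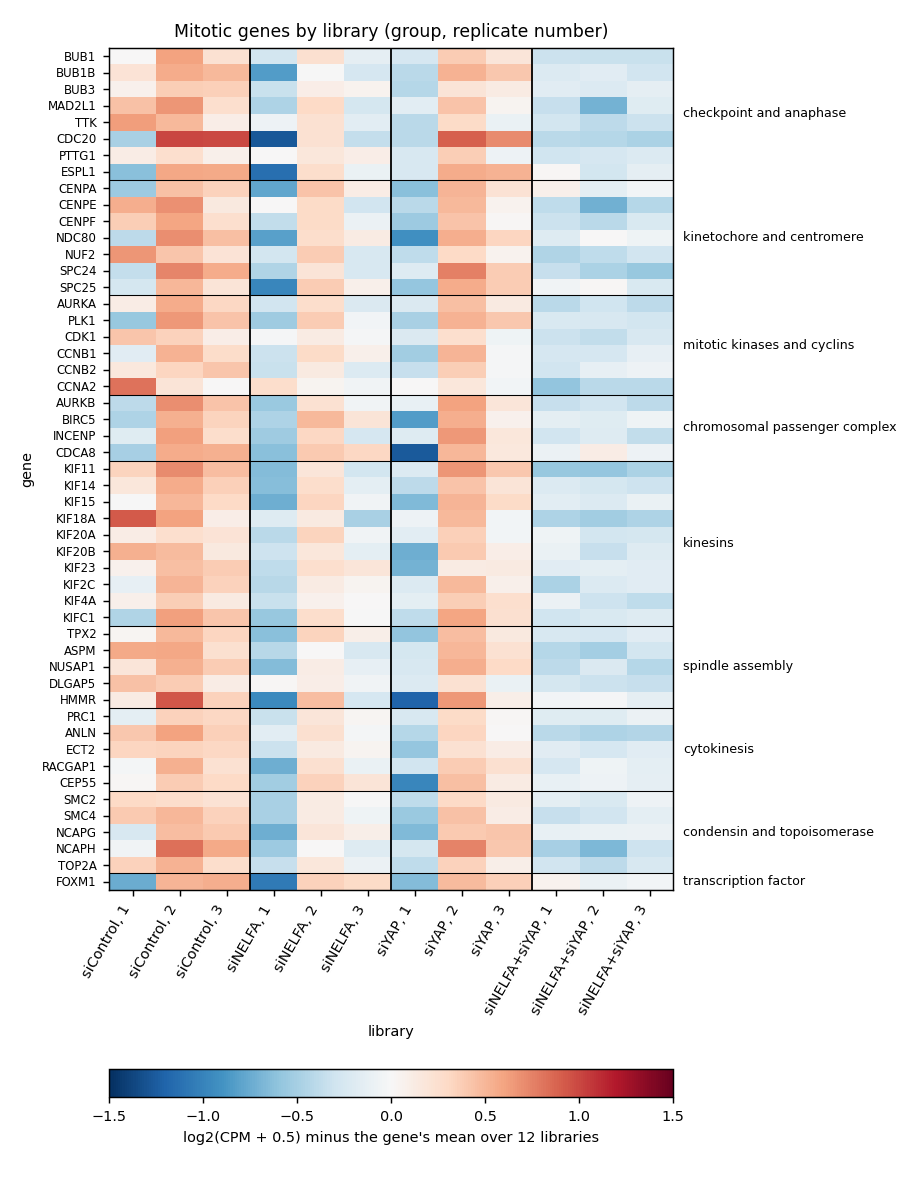
Each row is 1 of the 51 genes in its subgroup and each column 1 library, and the colour is log2(CPM + 0.5) minus the gene's mean over the 12 libraries. Replicates 2 and 3 of siControl and replicate 2 of siYAP have all 51 genes above their own mean, and siNELFA+siYAP replicate 3 has all 51 below it. In siControl replicate 1, 20 genes are below it.

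Replicate 1 was lower than the mean of replicates 2 and 3 in 40 of 51 genes in siControl (median -0.32 on the log2 scale), in 49 in siNELFA (-0.52) and in 51 in siYAP (-0.70), against 26 in siNELFA+siYAP. The replicate numbers were taken to pair siControl, siNELFA and siYAP with one another but not with siNELFA+siYAP. Whether replicates 2 and 3 pair by number, apart from the shift of replicate 1, was not tested. Comparisons among the first 3 groups are therefore also given with the replicate number as a block, called the blocked fit. Fold changes, standard errors and p-values are from edgeR's quasi-likelihood test, adjusted by Benjamini-Hochberg over all tested genes.

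**Figure D2:**
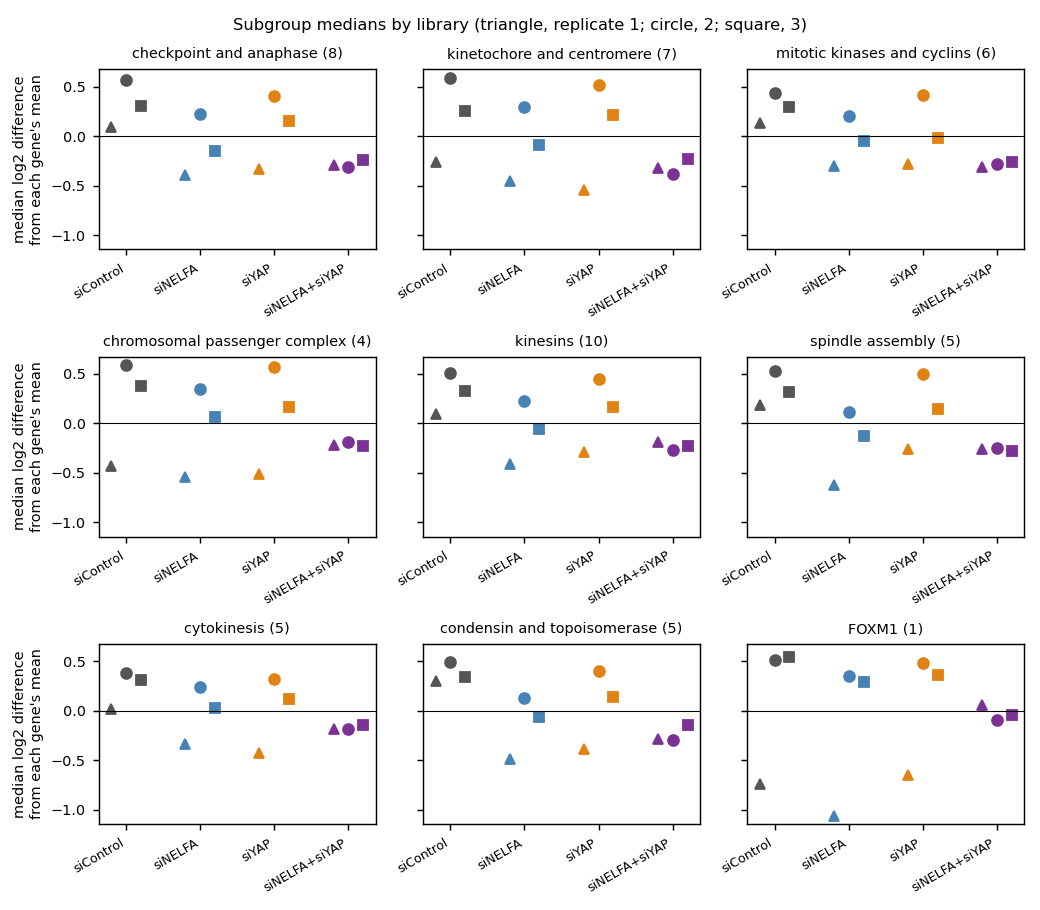
The median over each subgroup of the log2 difference from each gene's mean is plotted for every library, with groups on the horizontal axis, colours for groups and symbols for replicate numbers. In all 8 subgroups of several genes, replicates 2 and 3 of siControl, of siNELFA and of siYAP lie above the 3 siNELFA+siYAP libraries. Replicate 1 of siControl does not always do so, and for the chromosomal passenger complex it lies below all 3, at -0.43 against -0.21, -0.19 and -0.22.

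After NELFA knockdown, all 51 genes had lower fitted values than in siControl, where 50.0% of all tested genes did. Their median log2 fold change was -0.38, from -0.99 for CDC20 to -0.05 for PTTG1. For the other comparisons of 2 groups below, the share of all genes that were lower is given between libraries of one number only. It was 46.7% to 55.3%. Between libraries of one number, 47 of 51 were lower in siNELFA in all 3 pairs, against 22.4% of all genes, the exceptions being PTTG1, PLK1, BIRC5 and KIF20A. For 12 genes every siNELFA library was below every siControl library, against 6.08% of all genes.

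Without the block, 11 of the 51 were lower at a nominal p under 0.05 by edgeR, against 2.21% of all genes. By edgeR or by DESeq2, 0 passed the adjusted threshold. DESeq2 had 12 at a nominal p, for which the share of all genes is not given here. In the blocked fit, 41 were lower at a nominal p (9.78% of all genes) and 18 fell past the adjusted threshold (2.45% of all genes), with a median of -0.39. Without replicate 1 in either group the median was -0.31 and 21 were lower at a nominal p (7.15% of all genes), with 0 past the adjusted threshold. All 51 were lower there too, and 50 and 45 were when replicate 1 was left out of siControl alone or of siNELFA alone. The adjusted calls rest on the pairing.

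**Figure D3:**
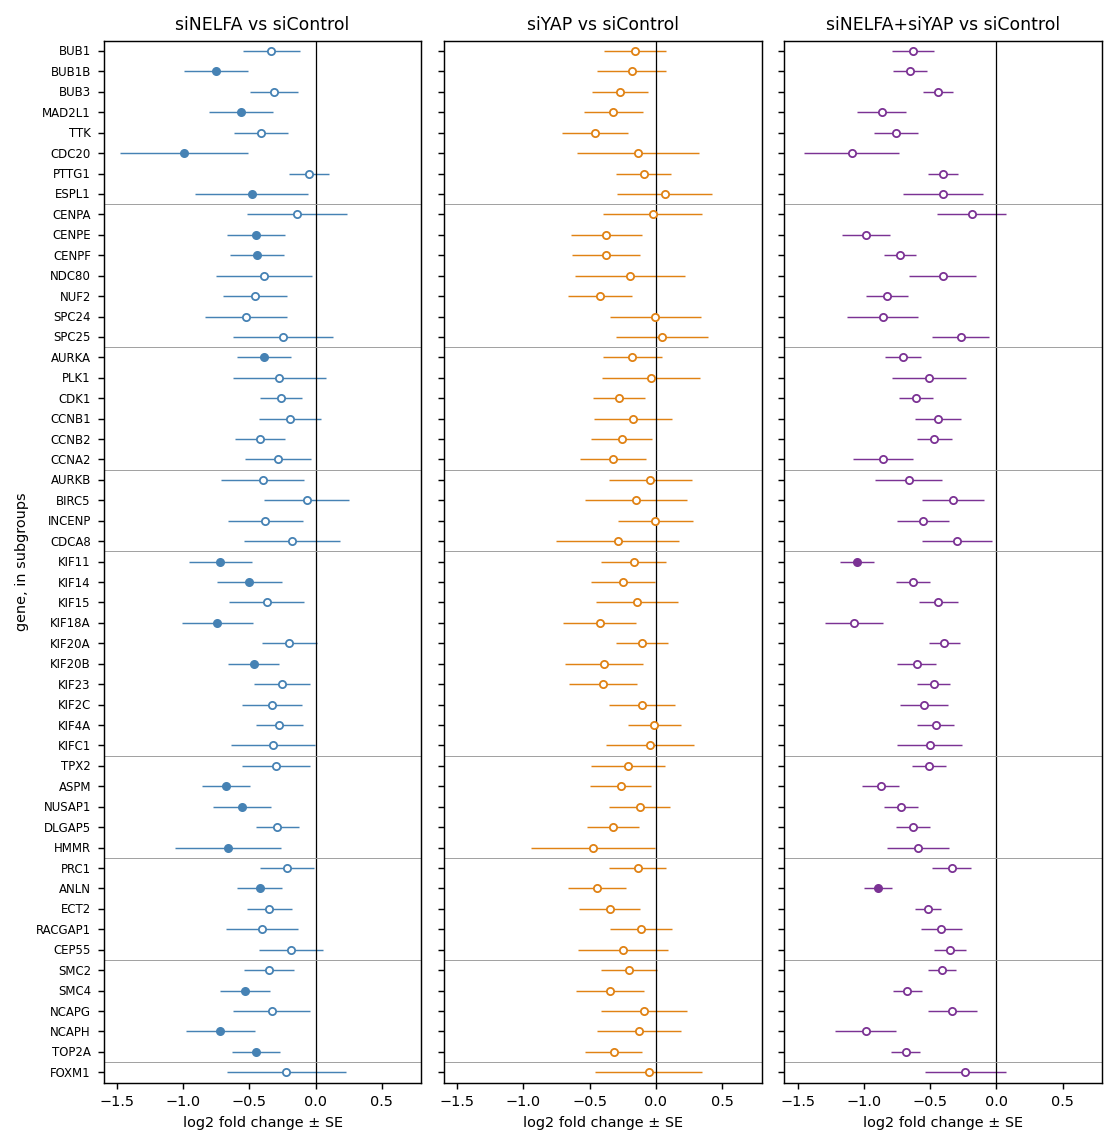
Log2 fold changes against siControl, with standard errors, from the fit without the block are plotted for the 51 genes in 3 panels, siNELFA, siYAP and siNELFA+siYAP. Filled points passed the adjusted threshold, in the blocked fit for siNELFA (18 genes) and siYAP (0) and without the block for siNELFA+siYAP (2).

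Among checkpoint and anaphase genes, 4 of 8 fell in the blocked fit of siNELFA, CDC20, BUB1B, MAD2L1 and ESPL1. CDC20 activates the anaphase-promoting complex, BUB1B and MAD2L1 are parts of the inhibitor that binds it, and ESPL1 is separase. CDC20 stood at 39.9, 114 and 112 CPM with siControl, 23.0, 66.0 and 43.8 with siNELFA, 42.2, 105 and 92.2 with siYAP and 42.3, 41.6 and 40.4 with siNELFA+siYAP, in replicates 1 to 3. CDC20 was lower in siNELFA than in siControl in each pair, although siControl replicate 1 lay below siNELFA replicates 2 and 3, and its blocked log2 fold change was -0.98 ± 0.14 (adjusted p = 0.00217) against -0.99 ± 0.48 (adjusted p = 1.00) without the block. In siYAP its log2 fold change was -0.13 ± 0.46, within 1 standard error of 0. PTTG1 (securin, the inhibitor of separase) was at 75.6, 83.5 and 73.8 CPM with siControl, 70.3, 78.6 and 75.0 with siNELFA, 59.1, 90.9 and 66.2 with siYAP and 56.7, 58.8 and 60.7 with siNELFA+siYAP. Its siControl and siNELFA libraries overlapped, and the 3 siNELFA+siYAP libraries lay below all 6. BUB1 (a checkpoint kinase at kinetochores) was at 175, 266 and 205 CPM with siControl, 145, 207 and 159 with siNELFA, 147, 228 and 199 with siYAP and 140.2, 138 and 139 with siNELFA+siYAP. BUB1 passed no adjusted threshold in siNELFA (blocked -0.33 ± 0.09, adjusted p = 0.0575), and all siNELFA+siYAP libraries lay below all the others. BUB1B gave a blocked value of -0.78 ± 0.12 in siNELFA (adjusted p = 0.00445), with 10.2% of its exon bases shared with PAK6 on the same strand.

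In the kinetochore and centromere group, CENPE, a kinesin that carries chromosomes to the spindle equator, and CENPF, a large kinetochore protein, fell in the blocked fit of siNELFA, 2 of 7 genes. CENPF stood at 575, 671 and 531 CPM with siControl, 344, 541 and 419 with siNELFA, 306, 597 and 451 with siYAP and 357, 337 and 380.0 with siNELFA+siYAP. Replicate 2 was highest in each of the first 3 groups, and the siNELFA+siYAP libraries lay below all siControl libraries. Its blocked value in siNELFA was -0.46 ± 0.10 (adjusted p = 0.0217). SPC24 (a subunit of the NDC80 complex, which holds microtubules) was at 26.9, 58.0 and 51.3 CPM with siControl, 25.2, 39.6 and 29.4 with siNELFA, 30.3, 59.0 and 45.1 with siYAP and 27.2, 24.7 and 23.3 with siNELFA+siYAP. Its groups overlapped in siNELFA and siControl through siControl replicate 1, and its blocked value, -0.49 ± 0.15, missed the adjusted threshold (adjusted p = 0.0809). CENPA (the histone H3 variant that marks centromeres) was at 12.3, 24.9 and 23.3 CPM with siControl, 10.4, 24.6 and 19.8 with siNELFA, 11.6, 26.2 and 21.2 with siYAP and 19.3, 16.4 and 17.6 with siNELFA+siYAP. CENPA had the smallest difference of the group in both knockdowns of NELFA, -0.14 ± 0.38 in siNELFA and -0.19 ± 0.26 in siNELFA+siYAP, each within 1 standard error of 0.

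Of the mitotic kinases and cyclins, only AURKA, the centrosomal Aurora kinase, passed the adjusted threshold in the blocked fit of siNELFA among 6. CCNB1 (cyclin B1, the partner of CDK1) was at 113, 183 and 154 CPM with siControl, 102, 155 and 134 with siNELFA, 88.6, 181 and 125 with siYAP and 107, 107 and 117 with siNELFA+siYAP. The 4 groups overlapped, and CCNB1 had the smallest difference of the 6 in siNELFA, -0.19 ± 0.23. CCNB2 (cyclin B2) was at 41.6, 46.6 and 50.0 CPM with siControl, 29.5, 41.0 and 32.4 with siNELFA, 29.1, 48.5 and 36.8 with siYAP and 30.4, 34.3 and 35.2 with siNELFA+siYAP. All siNELFA libraries of CCNB2 lay below all siControl libraries, and its blocked value of -0.43 ± 0.14 missed the adjusted threshold (adjusted p = 0.0902). PLK1, the Polo kinase, was at 34.3, 80.5 and 68.9 CPM in siControl and 35.2, 66.6 and 49.7 in siNELFA, and 12.8% of its exon bases lie opposite other listed genes.

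The chromosomal passenger complex, which places Aurora B at centromeres and then at the spindle midzone, had 0 of 4 genes past the adjusted threshold in siNELFA, with 2 at a nominal p in the blocked fit. INCENP (its scaffold) was at 61.2, 107 and 83.6 CPM with siControl, 47.9, 86.5 and 58.3 with siNELFA, 60.9, 109 and 78.3 with siYAP and 57.0, 60.6 and 53.6 with siNELFA+siYAP. AURKB (its kinase) was at 37.7, 81.0 and 67.0 CPM with siControl, 33.8, 58.3 and 48.0 with siNELFA, 46.2, 75.5 and 56.7 with siYAP and 38.9, 40.6 and 37.7 with siNELFA+siYAP. Both were lower in siNELFA than in siControl in each pair, with blocked values of -0.39 ± 0.11 for INCENP and -0.37 ± 0.12 for AURKB. BIRC5 (survivin, its inhibitor-of-apoptosis family member) was at 49.2, 98.4 and 85.5 CPM with siControl, 49.2, 95.3 and 77.5 with siNELFA, 37.8, 99.5 and 70.9 with siYAP and 61.4, 59.8 and 64.7 with siNELFA+siYAP. The log2 fold change of BIRC5 in siNELFA, -0.06 ± 0.32, was within 1 standard error of 0.

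Kinesins had 4 of 10 genes past the adjusted threshold in the blocked fit of siNELFA, KIF11, KIF18A, KIF14 and KIF20B. KIF11 (the motor that separates the spindle poles), shown because it also passed in the double knockdown, was at 121, 158 and 133 CPM with siControl, 60.8, 109 and 78.8 with siNELFA, 82.8, 152 and 127 with siYAP and 64.3, 64.1 and 69.0 with siNELFA+siYAP. Every siNELFA library was below every siControl library, the siYAP libraries overlapped siControl, and the siNELFA+siYAP libraries lay below all siControl and siYAP libraries. The blocked value in siNELFA was -0.74 ± 0.11 (adjusted p = 0.00342). KIF18A (which dampens chromosome movement at microtubule ends) was at 83.1, 67.0 and 46.9 CPM with siControl, 38.2, 48.1 and 31.1 with siNELFA, 41.5, 61.4 and 42.6 with siYAP and 31.6, 30.2 and 31.7 with siNELFA+siYAP. Its siControl replicate 1 was the highest library, and its blocked value was -0.72 ± 0.14 (adjusted p = 0.0129). KIF20B (a kinesin of late mitosis) was at 154, 148 and 118 CPM with siControl, 86.0, 120.2 and 96.3 with siNELFA, 64.0, 139.7 and 114 with siYAP and 99.4, 83.9 and 93.1 with siNELFA+siYAP. The siNELFA and siControl libraries of KIF20B overlapped by siNELFA replicate 2. KIF20A (a midzone kinesin) was at 70.5, 77.5 and 75.4 CPM with siControl, 49.1, 82.2 and 62.9 with siNELFA, 58.6, 83.6 and 63.6 with siYAP and 62.3, 53.8 and 54.2 with siNELFA+siYAP. KIF20A had the smallest difference of the 10, -0.20 ± 0.21, and was higher in siNELFA than in siControl in pair 2.

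**Figure D4:**
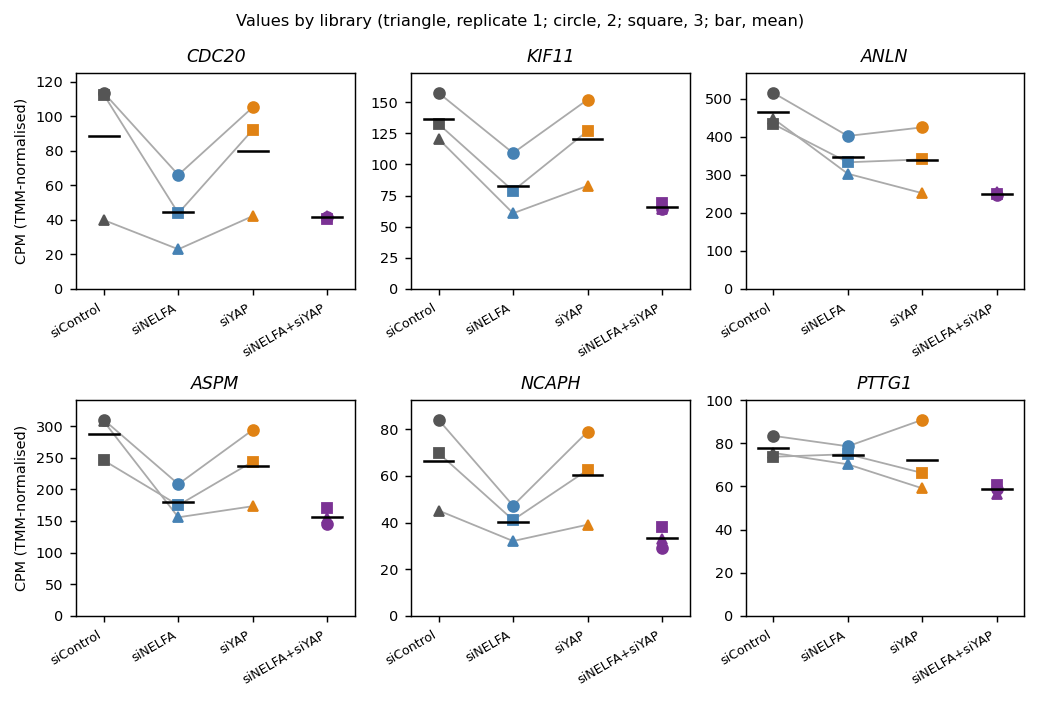
CPM values of 6 genes are plotted by group, with a symbol for each replicate number and bars for group means. Grey lines join the libraries of one number in the 3 groups taken to pair. CDC20, KIF11, ANLN, ASPM and NCAPH are lower in siNELFA than in siControl in all 3 pairs, and PTTG1 is not.

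Spindle assembly factors had 3 of 5 genes past the adjusted threshold in the blocked fit of siNELFA, ASPM, NUSAP1 and HMMR. ASPM (which focuses spindle poles) was at 307, 309.9 and 246 CPM with siControl, 156, 208 and 175 with siNELFA, 173, 294 and 244 with siYAP and 155, 145 and 171 with siNELFA+siYAP. The siNELFA libraries were all below the siControl libraries, and the blocked value was -0.67 ± 0.11 (adjusted p = 0.00473). TPX2 (the activator of Aurora A on the spindle) was at 319, 438 and 389 CPM with siControl, 202, 394 and 333 with siNELFA, 206, 429 and 344 with siYAP and 264, 262 and 278 with siNELFA+siYAP. TPX2 was the most abundant of the 5 in CPM and its siNELFA and siControl libraries overlapped, with -0.34 ± 0.11 in the blocked fit (adjusted p = 0.0912). DLGAP5 (HURP, a microtubule stabiliser) was at 123, 117 and 97.2 CPM with siControl, 91.1, 96.8 and 86.9 with siNELFA, 77.7, 105 and 83.8 with siYAP and 75.1, 72.0 and 70.6 with siNELFA+siYAP. DLGAP5 had a smaller difference, -0.28 ± 0.11 in the blocked fit, and yet no overlap between siNELFA and siControl.

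Of the cytokinesis genes, ANLN, the anillin scaffold of the contractile ring, fell in the blocked fit of siNELFA, 1 of 5. ANLN stood at 447, 515 and 433 CPM with siControl, 303, 402 and 333 with siNELFA, 251, 424 and 340.3 with siYAP and 255, 246 and 251 with siNELFA+siYAP. Both single knockdowns lay below siControl in every library, and the siNELFA+siYAP libraries overlapped the siYAP libraries through siYAP replicate 1. CEP55 (an abscission factor) was at 98.4, 126 and 119.5 CPM with siControl, 67.6, 124 and 111 with siNELFA, 48.8, 132 and 106 with siYAP and 89.9, 92.0 and 87.9 with siNELFA+siYAP. Its siNELFA and siControl libraries overlapped, with -0.18 ± 0.24 in siNELFA, and its siNELFA+siYAP libraries lay below siControl. PRC1, which bundles midzone microtubules, has 34.3% of its exon bases opposite PRC1-AS1, and its readings differed by measure. In CPM it was at 141 ± 25.3 in siControl and 121 ± 21.5 in siNELFA (SD, n = 3), and in TPM at 101 ± 11.5 and 59.7 ± 16.1. A larger fall in TPM than in CPM was not particular to PRC1. INCENP, with no exon bases opposite another listed gene, also had one. Over the 51 genes, the median of the group mean TPM was 44.5 in siControl and 30.8 in siNELFA. Whether the overlap played a part was not tested. The strand setting of the counting is not given in the sources used here.

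Condensin and topoisomerase had 3 of 5 genes past the adjusted threshold in the blocked fit of siNELFA, NCAPH, SMC4 and TOP2A. Condensin compacts mitotic chromosomes, and TOP2A, topoisomerase II alpha, untangles sister DNA. TOP2A stood at 604, 677 and 567 CPM with siControl, 372, 531 and 445 with siNELFA, 364, 601 and 505 with siYAP and 387, 361 and 401 with siNELFA+siYAP. All siNELFA libraries were below all siControl libraries, and the blocked value was -0.46 ± 0.10 (adjusted p = 0.0176). NCAPH (the kleisin of condensin I) was at 45.2, 84.0 and 69.8 CPM with siControl, 32.1, 47.2 and 41.1 with siNELFA, 39.1, 78.9 and 62.5 with siYAP and 33.1, 29.2 and 38.0 with siNELFA+siYAP. NCAPH was lower in siNELFA in each pair, with -0.70 ± 0.12 in the blocked fit (adjusted p = 0.00829), and the siNELFA+siYAP libraries lay below all siControl and siYAP libraries. NCAPG (the other non-SMC subunit of condensin I listed) was at 69.9, 114 and 109 CPM with siControl, 49.6, 94.0 and 88.4 with siNELFA, 52.1, 109 and 111 with siYAP and 77.0, 77.5 and 78.1 with siNELFA+siYAP. NCAPG missed the adjusted threshold at -0.35 ± 0.11 (adjusted p = 0.0835), and 33.7% of its exon bases lie opposite LCORL. SMC4, which passed it, has 22.0% of its exon bases opposite IFT80 and TRIM59.

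FOXM1 (the forkhead factor that drives G2 and mitotic genes) was at 72.5, 173 and 177 CPM with siControl, 58.0, 155 and 148 with siNELFA, 77.4, 169 and 156 with siYAP and 126, 114 and 118 with siNELFA+siYAP. Replicate 1 was below the others by over 1 on the log2 scale in siControl, siNELFA and siYAP, and the 3 siNELFA+siYAP libraries lay between. The blocked value in siNELFA was -0.24 ± 0.10 (adjusted p = 0.2), and the value in siNELFA+siYAP was -0.23 ± 0.30 (adjusted p = 0.717).

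After YAP knockdown, 49 of the 51 genes had lower fitted values. Log2 fold changes against siControl had their median at -0.18, the lowest being -0.48 for HMMR and the highest 0.06 for ESPL1. At a nominal p, 0 were lower without the block, against 0.549% of all genes, and 13 in the blocked fit, against 4% of all genes. The adjusted threshold was passed by 0 of 51 in edgeR with and without the block (0.0173% of all genes with it) and in DESeq2, which also had 0 at a nominal p. In all 3 pairs 30 of 51 were lower, against 20.4% of all genes, and the pair medians were -0.53, -0.06 and -0.17 for replicates 1, 2 and 3. For 2 of the 51, ANLN and ECT2 (a cytokinesis factor), every siYAP library was below every siControl library. The same held for 726 of all 17296 tested genes. Without siYAP replicate 1 the median was 0.03, with 25 of 51 lower, and without replicate 1 in both groups it was -0.11, with 47 lower and 1 at a nominal p (2.19% of all genes).

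After the double knockdown, all 51 genes again had lower fitted values than in siControl, between -1.09 for CDC20 and -0.19 for CENPA and with the median at -0.55. At a nominal p 40 were lower, against 10.2% of all genes, and 36 had every siNELFA+siYAP library below every siControl library, against 14.6% of all genes. ANLN and KIF11 fell past the adjusted threshold, against 0.308% of all genes. ANLN changed by -0.89 ± 0.11 (adjusted p = 0.0362) and KIF11 by -1.06 ± 0.13 (adjusted p = 0.0372). With the siNELFA+siYAP libraries summed as 1 sample, the median was -0.56 and all 51 were lower, 10 of them at a nominal p (1.06% of all genes), and 0 passed the adjusted threshold. Leaving out siControl replicate 2, or any single siNELFA+siYAP library, left 0 of the 51 past it. Next in order of p were ASPM at -0.87 ± 0.14, SMC4 at -0.67 ± 0.11 and TOP2A at -0.69 ± 0.11, with adjusted p of 0.0571, 0.0577 and 0.0593. Per subgroup, the median was -0.73 for the kinetochore and centromere, -0.67 for condensin and topoisomerase, -0.64 for the checkpoint and anaphase, -0.63 for spindle assembly, -0.56 for kinases and cyclins, -0.53 for kinesins, -0.44 for the passenger complex and -0.42 for cytokinesis.

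How many genes passed depended on which siControl library was left out. Without replicate 1 all 51 fell past the adjusted threshold, with a median of -0.65, where 12.9% of all genes did. Without replicate 1 in both groups it was 50 of 51, with a median of -0.61, against 9.57% of all genes. DESeq2 on all 6 libraries called 31 (4.46% of all genes), of which 16 were among the 18 called in the blocked fit of siNELFA, a share of 51.6% of the 31 and 88.9% of the 18. These comparisons share the siControl libraries.

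Adding NELFA knockdown to YAP-depleted cells, siNELFA+siYAP against siYAP, gave lower fitted values for 50 of 51 genes, with a median of -0.32. At a nominal p 16 were lower (8.85% of all genes), 0 passed the adjusted threshold by edgeR and 5 did by DESeq2, SPC24, CCNA2, KIF11, KIF18A and NCAPH (2.67% of all genes), and 13 did not overlap (12.6% of all genes). The largest differences were CDC20 at -0.96 ± 0.30, KIF11 at -0.88 ± 0.21, NCAPH at -0.86 ± 0.25 and SPC24 at -0.85 ± 0.23. Without siYAP replicate 1, 46 fell past the adjusted threshold (8.56% of all genes), with a median of -0.54, and without replicate 1 in both groups 33 did (4.16% of all genes). With the siNELFA+siYAP libraries summed as 1 sample, 51 were lower and 0 reached a nominal p. This comparison shares no library with siNELFA against siControl, and across the 51 genes the log2 fold changes of the 2 comparisons correlated with r = 0.67, against 0.34 across 16804 genes. Likewise sharing no library, siYAP against siControl and siNELFA+siYAP against siNELFA correlated with r = 0.36 across the 51 genes, against 0.11 across 16769 genes. The genes in these correlations share libraries within each comparison, and genes are not independent replicates.

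Adding YAP knockdown to NELFA-depleted cells, siNELFA+siYAP against siNELFA, gave lower fitted values for 47 of 51 genes, with a median of -0.18. At a nominal p 7 were lower (3.93% of all genes), 0 passed the adjusted threshold by edgeR or DESeq2, and 10 did not overlap (7.89% of all genes). CCNA2, cyclin A2, had -0.56 ± 0.13, CENPE -0.52 ± 0.17 and ANLN -0.46 ± 0.12, each with an adjusted p of 0.735. Without siNELFA replicate 1 the median was -0.35 and 8 fell past the adjusted threshold (0.766% of all genes). Summed as 1 sample, siNELFA+siYAP gave 46 lower values and 0 at a nominal p.

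The single knockdowns were compared directly. Fitted values were lower in siNELFA than in siYAP for 40 of 51 genes, with a median of -0.17, and 0 were lower at a nominal p without the block (2.94% of all genes). In the blocked fit 23 were lower at a nominal p (13.8% of all genes) and 13 past the adjusted threshold (7.44% of all genes), and 28 were lower in all 3 pairs (22.9% of all genes). CDC20 differed by -0.88 ± 0.10 (adjusted p = 1.75e-06), KIF11 by -0.54 ± 0.09 (adjusted p = 0.000143), BUB1B by -0.56 ± 0.10 (adjusted p = 0.000296) and NCAPH by -0.56 ± 0.11 (adjusted p = 0.000757). The other 9 were ESPL1, NUSAP1, ASPM, SPC24, INCENP, AURKB, RACGAP1, KIF18A and KIFC1. Of the 13, 8 were also among the 18 called in siNELFA against siControl, a share of 61.5% of the 13 and 44.4% of the 18, and these comparisons share the siNELFA libraries. Without siYAP replicate 2 the unblocked median was 0.05. Without replicate 1 in both groups, and without the block, it was -0.23, with 48 lower, 9 at a nominal p (6.54% of all genes) and 0 past the adjusted threshold.

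The effect of NELFA knockdown in YAP-depleted cells was set against that in cells with YAP in 1 fit over the 12 libraries. The difference had a median of 0.03 over the 51 genes, 0 were lower at a nominal p (1.11% of all genes), none was higher, and 0 passed the adjusted threshold by edgeR or DESeq2. With siNELFA+siYAP summed as 1 sample the median was also 0.03, with 0 at a nominal p. The differences ran from -0.31 for SPC24 to 0.56 for HMMR.

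**Figure D5:**
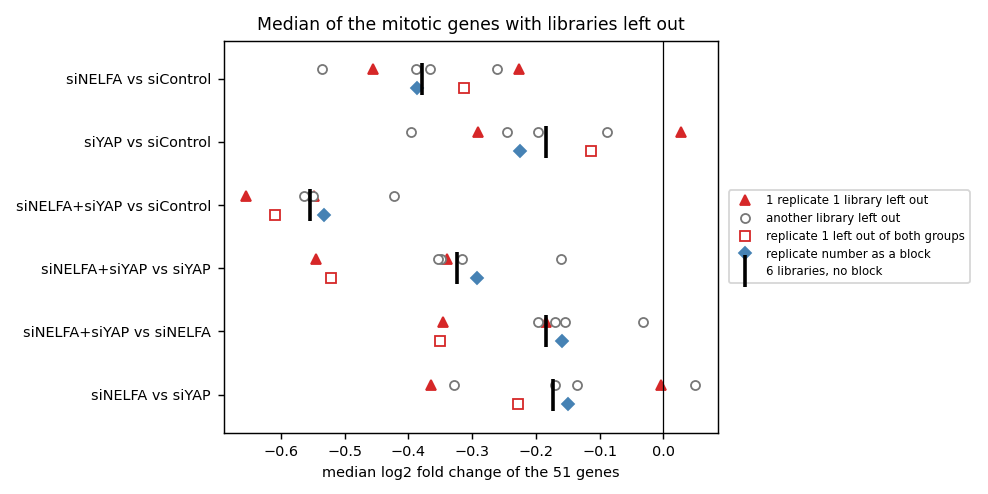
The median log2 fold change of the 51 genes is plotted for 6 comparisons, with all 6 libraries, with the replicate block and with libraries left out. The medians of siNELFA and siNELFA+siYAP against siControl stay below 0 under every omission, and that of siYAP against siControl reaches 0.03 without siYAP replicate 1.

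Other genes of the cell cycle were counted by lists, against 2.45% of all genes that fell in the blocked fit of siNELFA and 10.2% that were lower at a nominal p in siNELFA+siYAP. Of 68 further mitotic genes, 59 had lower values in siNELFA and 12 fell in the blocked fit, and in siNELFA+siYAP 64 were lower, 34 at a nominal p. The 4 of smallest p there were MIS18A at -0.95, KNSTRN at -1.05, SGO1 at -0.85 and ARHGAP11A at -0.67. Of 35 DNA replication genes, 33 were lower in siNELFA, 13 fell in the blocked fit, and in siNELFA+siYAP 34 were lower, 9 at a nominal p. Of 23 cohesin and anaphase-promoting complex genes, 20 were lower in siNELFA and 3 fell in the blocked fit, and in siNELFA+siYAP 18 were lower, 7 at a nominal p. The 21 transcription regulators of the cell cycle had 0 past the adjusted threshold in both, with 16 and 15 lower.

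Of 16 tested cell cycle brakes, 11 had higher values in siNELFA, and in the blocked fit 3 rose and 1 fell past the adjusted threshold, where 2.76% of all genes rose. In siNELFA+siYAP 8 were higher and 8 lower, with a median of -0.05 and 0 past the adjusted threshold. At a nominal p 2 were lower, where 10.2% of all genes were. Another 4 were higher at a nominal p, for which the share of all genes is not given here. CDKN1A, the CDK inhibitor p21, was at 52.6, 80.1 and 128 CPM in siControl replicates 1 to 3, 168, 169 and 245 with siNELFA, 128, 95.2 and 158 with siYAP and 253, 251 and 244 with siNELFA+siYAP. Its siNELFA and siControl libraries did not overlap, and its blocked log2 fold change in siNELFA was 1.23 ± 0.13 (adjusted p = 0.000385).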

How the data were processed

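RNA was sequenced from 12 libraries of MDA-MB-231 cells, 3 in each of 4 siRNA groups. The study's methods describe independent biological replicates, but the names of the siNELFA+siYAP libraries give them 1 sample number, and they may be repeats of 1 sample. The authors aligned ribosomal RNA-depleted, stranded paired reads with STAR to GRCh38 (Ensembl annotation) and counted them per gene with featureCounts, and they deposited the raw counts. TPM and FPKM values were deposited by the authors as well, with Cufflinks named in the labels. TPM gave levels per length and 1 alternative. FPKM was not used, because in 12 of 12 columns it rescaled to a TPM column within 0.01. Versions and the strand and overlap settings of the counting are not given in the sources used here. All per-sample columns matched a sample.

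Counts were normalised by TMM, genes were filtered with filterByExpr (minimum count 10, minimum total 15, proportion 0.7), and each comparison of 2 groups was fitted on its 6 libraries with the quasi-likelihood test of edgeR 4.0.16 in R 4.3.3, two-sided, with Benjamini-Hochberg adjustment over all tested genes and a threshold of 0.05. The difference between the NELFA effects with and without YAP knockdown was fitted on 12 libraries. The standard error was the log2 fold change divided by the square root of F. Alternatives were a replicate block, DESeq2 1.42.0, RLE size factors, no filter, all 12 libraries in 1 fit, leaving out single libraries or replicate 1 in both groups, and log2(TPM + 1). After the data were seen, fits with the siNELFA+siYAP counts summed as 1 sample, and blocked fits without replicate 1, were added. Scripts were tested on simulated counts. Depth was 9608145 to 18803104 counts per library, and counts below about 10 carry large counting error.

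Same-numbered libraries of siControl, siNELFA and siYAP deviated together from their group means (r = 0.650 to 0.889 over 12971 genes averaging at least 50 counts), and those of siNELFA+siYAP did not deviate with them (r = -0.0512 to 0.0277). A shared shift of replicate 1 moves the group mean, and with it the deviations of replicates 2 and 3. Libraries of unlike number were not correlated, so r cannot show separately that replicates 2 and 3 pair by number. The numbers were taken to pair the first 3 groups from these values and the shared numbers in the titles.

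Values per library are given for the most abundant member of each subgroup and those with the lowest and highest log2 fold change in siNELFA against siControl, and for KIF11, which passed the adjusted threshold. Statistics are given for these and for members of smallest p. The members, subgroups and gene lists were chosen with earlier results of these data known. The NELFA and YAP1 rows checked the labels. Positions and promoter sequences are from the GRCh38.p14 RefSeq tables. Of the 51 genes, 19 share exon bases with another listed gene, 3 of them on the same strand. Over 10% of exon bases lie opposite another listed gene in 6, PRC1, NCAPG, SMC4, FOXM1 (15.9%), KIFC1 (14.0%) and PLK1. Of these, SMC4 was called in the blocked fit of siNELFA against siControl and KIFC1 in that of siNELFA against siYAP.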

Additional observations from a re-analysis of the deposited data

How the results depend on the processing

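Of the counts and medians over the 51 genes, 169 values under the alternatives kept their direction and stayed within 1.5 times the main count or within the spread of the replicates, 22 moved and 5 reversed. Among single genes the numbers were 413 unchanged in call, 79 newly past the adjusted threshold, 14 no longer past it and 1 reversed. The replicate block raised the genes past the adjusted threshold from 0 to 18 in siNELFA against siControl and from 0 to 13 in siNELFA against siYAP. It gave 0 in siNELFA+siYAP against siControl, where the numbers do not pair the libraries, and changed no other count. Fits chosen after the data were seen gave 0 in siNELFA+siYAP against siControl with the siNELFA+siYAP libraries summed as 1 sample. With the block and without replicate 1 in both groups, 2 pairs are left and little to estimate the spread from. Those fits gave 32 in siNELFA against siControl, 1 (ANLN) in siYAP against siControl and 20 in siNELFA against siYAP. The share of all genes past the threshold in them is not given here, so these counts cannot be read as particular to the 51 genes. In siNELFA+siYAP against siControl the count was 31 with DESeq2, 13 with no filter on low counts and 0 with all 12 libraries in 1 fit, and it ranged from 0 to 51 with libraries left out, with 50 without replicate 1 in both groups. In siNELFA+siYAP against siYAP it was 5 with DESeq2, 1 with no filter, 0 to 46 with libraries left out and 33 without replicate 1 in both groups, and in siNELFA+siYAP against siNELFA 0 to 8. The counts with no filter are likewise given without the share of all genes. Leaving out libraries moved the median log2 fold change between -0.54 and -0.23 for siNELFA against siControl and between -0.65 and -0.42 for siNELFA+siYAP against siControl. It reversed the median of siYAP against siControl (-0.40 to 0.028, the latter without siYAP replicate 1), of siNELFA against siYAP (-0.36 to 0.050, the latter without siYAP replicate 2) and of the difference between the NELFA effects (-0.18 to 0.25, below 0 without siControl replicate 2, siNELFA replicate 1 or siYAP replicate 1). PTTG1 in siNELFA against siControl ran from -0.083 without siControl replicate 3 to 0.0055 without siControl replicate 2. The cause of these shifts was not tested.

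With 3 libraries a group, the spread between replicates is estimated from few values. The lowest count of any of the 51 genes was 50. Replicate 1 had the lowest library total in each group, and the part of depth in the results was not tested. The replicate 1 libraries of 3 groups stand apart, and siNELFA+siYAP has none that does, so comparisons with it set unlike sets of libraries side by side. Its libraries share 1 sample number in their names and may be repeats of 1 sample, which cannot be told apart from 3 separate cultures here.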

Other observations

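The difference between replicate 1 and the mean of replicates 2 and 3 was not the same for all 51 genes. In siControl it was -1.49 on the log2 scale for CDC20, -1.27 for FOXM1 and -1.20 for ESPL1, while CCNA2 was higher in replicate 1 by 0.72 and KIF18A by 0.56. These genes were chosen after their values were seen. In siNELFA+siYAP the same difference stayed between -0.28 and 0.26 for all 51 genes.

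BTG2, an antiproliferative gene among the cell cycle brakes, had a log2 fold change of 1.73 in siNELFA+siYAP against siControl by edgeR without the block, with an adjusted p of 0.118, and CDKN1A had 1.52 with an adjusted p of 0.0735. The list did not move one way there, with 8 of 16 higher and 8 lower.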
